A study of Mus musculus with 6 samples.

Results

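The comparison set 2 vascular and leptomeningeal cells (VLMCs) of the mouse brain against 4 oligodendrocytes, gene by gene, in long-read sequences of single cDNA molecules. All 6 cells of the series entered it. The labels call the first pair oligodendrocyte progenitor cells 1 and 2, while the study that produced the data calls them VLMCs, and they are named VLMC-1 and VLMC-2 here. The oligodendrocytes are the cells labelled Oligodendrocyte 1 (Oligo1-1 and Oligo1-2, immature in the study's terms) and Oligodendrocyte 5 (Oligo5-1 and Oligo5-2, mature and myelinating). Cells of both kinds came from the brain of CD-1 mice, were captured on the C1 microfluidic system, and carry the stage label Embryo. No treatment or genetic change was described, and no animal is named for any cell, so each side counts as 1 sample and no test between the sides was made. The members are the 36303 transcripts of 36659 that were assigned to a single gene, from 6357 genes. A transcript is a molecule counted once by its unique molecular identifier (UMI), a random tag of 6 bases.

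VLMCs resemble fibroblasts and sit in the coverings of the brain and along its larger vessels. They lay down collagens and proteoglycans, secrete growth factors and carry transporters of the barrier between blood, cerebrospinal fluid and brain. Oligodendrocytes wrap axons in myelin, a membrane rich in cholesterol and galactolipids that is held together by a small set of abundant proteins.

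Transcripts of single genes numbered 2309 in VLMC-1 and 4625 in VLMC-2, and between 5823 and 11371 in the 4 oligodendrocytes. A gene with no transcript could still take up to 0.0433% of the 6934 VLMC transcripts and up to 0.0102% of the 29369 oligodendrocyte transcripts, at 3 transcripts over a side. These limits and the exact (Clopper-Pearson) 95% intervals below cover counting error only. The share of transcripts that reached the annotated first exon was 37.3% and 47.4% in the VLMCs and ran from 12.5% in Oligo1-2 to 48.9% in Oligo5-2. The 6 cell barcodes were distinct, and 2.02% of 71843 sequenced molecules had reads in more than 1 cell.

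The markers separated the sides without overlap. Of 12 genes listed as VLMC markers, 11 were detected in VLMCs and 0 in oligodendrocytes, and together they took 4.16% (95% interval 3.38 to 5.05) of VLMC-1 and 5.32% (4.69 to 6.01) of VLMC-2. All 12 oligodendrocyte markers were found in oligodendrocytes and 0 in VLMCs, and they took between 10.1% (Oligo5-2) and 15.4% (Oligo5-1) of the cells. The difference, VLMCs minus oligodendrocytes, was −13.0 percentage points, −4.44 with UMIs within 1 substitution counted once and −8.38 among transcripts with the first exon. Few markers bear on the label of progenitor cell, with 4 of 10 listed genes detected in any cell. Together they took 0.217% and 0.0649% of the VLMCs, within the range of the oligodendrocytes, 0.0162% to 0.316%. The only member of the progenitor list in VLMCs was Pdgfra, a growth factor receptor that fibroblasts of the meninges also carry, with 5 and 3 transcripts. Olig1 and Olig2, the transcription factors of the oligodendrocyte lineage, had 0 transcripts in both VLMCs and 52 and 7 in the oligodendrocytes. Markers of other cells were counted as well. Of the pericyte and smooth muscle list 1 gene was found, Vtn, vitronectin, with 11 and 35 transcripts in the VLMCs, 0.476% and 0.757%, and 0 in oligodendrocytes. The neuron list had 38 transcripts in Oligo5-2, 0.616% of that cell, and 0 in the other 5 cells. The endothelial list had 15 transcripts in VLMCs, all of Itm2a, and 1, 1, 10 and 0 in the oligodendrocytes. The astrocyte list had 26 transcripts in VLMCs, 22 of Slc1a3 and 4 of Gja1, and 3, 0, 4 and 19 in the oligodendrocytes, where 17 of those in Oligo5-2 were of Slc1a2. The microglia list had 1 transcript, of Tyrobp in VLMC-2, and the ependymal and red blood cell lists had 0. The part of these transcripts in the results below was not tested.

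A gene was called higher on one side when its mean share over the cells was at least 4-fold that of the other side and the cells of the sides did not overlap, among 669 genes with 10 or more transcripts over the 6 cells. A side with no transcript was set to 3 transcripts, so that such a fold is a lower bound. A side with few transcripts kept its own share, which can lie below this floor. Mag, with 46 transcripts in oligodendrocytes and 0 in VLMCs, was thus not called. Tuba1a, with fewer in oligodendrocytes but a transcript in VLMCs, was called. Folds with and without the floor are therefore not on the same scale. By this rule 69 genes, 10.3% of those tested, were called higher in VLMCs, and 31 of them had no transcript in any oligodendrocyte. In the other direction 39 genes, 5.83%, were called higher in oligodendrocytes, and 21 of them had no transcript in either VLMC. The minimum was reached in VLMCs alone for 55 of the 69 and in oligodendrocytes alone for all 39, so that many of them entered through the side where they were high. The median log2 ratio of VLMCs over oligodendrocytes across the 669 genes was −0.05, with the 267 genes without a VLMC transcript and the 37 without an oligodendrocyte transcript set to the floor.

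Genes of the extracellular matrix led the VLMC side. Dcn, decorin, a small proteoglycan that binds collagen fibrils (chr10:97479609-97518143, plus strand, GRCm38), had 35 transcripts in VLMC-1 and 45 in VLMC-2, which is 1.52% and 0.973% of these cells, and 0 in each oligodendrocyte. Its mean share was at least 122-fold higher in VLMCs. Lum, lumican, a related proteoglycan that lies next to Dcn in the genome (chr10:97565128-97572703), had 11 and 45 transcripts against 0, at least 70.9-fold higher. Both VLMCs were above every oligodendrocyte for both genes, but the order of the VLMCs differed, with Dcn higher in VLMC-1 and Lum higher in VLMC-2. Spp1, osteopontin, a secreted phosphoprotein of matrix and immune signalling, had 63 and 39 transcripts against 0 and the largest lower bound, 175-fold. Itih5, a secreted protein that binds hyaluronan, had 35 and 39 against 0, at least 115-fold higher.

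The collagen list was higher in VLMCs in sum. It took 1.95% of VLMC-1 and 3.35% of VLMC-2, against 0.0649% to 0.189% in the oligodendrocytes. The difference was 2.53 percentage points, and 0.940 among transcripts with the first exon. All 22 detected members were found in VLMCs and 6 of them in oligodendrocytes, among these P4hb and Serpinh1, which act in the folding of collagen and of other secreted proteins. Of 4 members tested, 3 were called: Col1a2, the second chain of type I collagen, with 11 and 47 transcripts and 0 in oligodendrocytes, Col3a1, a fibrillar collagen, with 7 and 8 and 0, and Sparc. Sparc, a secreted collagen-binding protein, had 10 and 49 transcripts in VLMCs and 7 and 3 in Oligo5-1 and Oligo5-2, a 17.7-fold higher mean share. Outside the list, Col4a5, a basement membrane chain, was called with 14 and 9 against 0. Col1a1, the partner chain of Col1a2, had 0 and 3 transcripts and was below the minimum. The list of proteoglycans and other matrix proteins took 6.41% and 3.52% of the VLMCs and at most 0.0687% of an oligodendrocyte. All 4 members tested were called, with a median log2 ratio of 6.54. They had 0 transcripts in oligodendrocytes and reached the minimum through VLMCs alone, so that this median is a lower bound set by the floor. The difference of this list was 4.95 points, and 7.45 with the first exon. The fourth member beside Spp1, Dcn and Lum was Nid1, nidogen of the basement membrane, with 9 and 9 transcripts against 0. Timp3, an inhibitor of matrix proteases that stays bound to matrix, had 10 and 21 transcripts against 2, 2, 0 and 0. Timp2, of the same family, went the other way, with 0 and 1 against 4, 7, 2 and 2.

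Secreted growth factors and carriers were the next group. Igf2, insulin-like growth factor 2, had 19 transcripts in VLMC-1, 0.823%, and 62 in VLMC-2, 1.34%, and 0 in the 4 oligodendrocytes, at least 106-fold higher. The 4 detected genes of the insulin-like growth factor list were all present in VLMCs. Igfbp2 and Igfbp4, binding proteins of these factors, had 2 and 5 and 1 and 5 transcripts, with 0 in oligodendrocytes, and Igf1r, the receptor, had 4 and 1 in VLMCs and 3 in Oligo5-1. The share of the list, called the IGF axis here, was 1.34 percentage points higher in VLMCs over all transcripts, but 0.0228 points higher among transcripts that reached the first exon. The chemokines Cxcl1 and Ccl2 were each seen in a single VLMC, Cxcl1 with 12 transcripts in VLMC-1 and Ccl2 with 13 in VLMC-2, and were not called.

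Transporters of the barrier were part of the difference. Slc6a13, a carrier of GABA and taurine, had 11 and 23 transcripts in VLMCs, 0.476% and 0.497%, and 0 in oligodendrocytes, and was the member with the nearest shares in the VLMCs among the 15 genes with the largest folds. Slc7a11, the cystine and glutamate exchanger, had 3 and 10 against 0. Slc12a2, a sodium, potassium and chloride carrier, was called higher in oligodendrocytes, with 0 and 0 against 19, 30, 13 and 1. Of 5 tested genes of the list of barrier carriers 2 were called higher in VLMCs and 1 in oligodendrocytes, and the list took 1.08% and 1.69% of the VLMCs against 0.130% to 0.516%.

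Transcription factors of mesenchyme and meninges took 1.47% and 1.02% of the VLMCs and 0 to 0.0649% of the oligodendrocytes, a difference of 1.22 points, or 0.518 with the first exon. All 3 tested members were called higher in VLMCs, and each reached the minimum through VLMCs alone, the side where it was high. Tbx18, a T-box factor of mesenchyme around vessels, had 9 and 9 transcripts against 0, Nr2f2, an orphan nuclear receptor also called COUP-TFII, had 7 and 6 against 0, and Klf2, a factor of vascular cells, had 3 and 9 against 1. Members below the minimum included Foxc1 and Zic1, with 1 and 3 transcripts each, and Foxd1, with 0 and 2, all at 0 in oligodendrocytes.

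Immediate early and stress genes, which many stimuli induce within a short time, took 4.46% of VLMC-1 and 4.28% of VLMC-2, and 0.712%, 0.499%, 0.807% and 0.584% of the oligodendrocytes. Of 15 tested members 9 were called higher in VLMCs and 0 in oligodendrocytes. The median log2 ratio was 3.67, where genes without a transcript on a side stand at their bound. Fos, a subunit of the AP-1 transcription factor, had 37 transcripts in VLMC-1, 1.60%, and 18 in VLMC-2, 0.389%, against 0, 1, 1 and 2. Fosb, of the same family, had 5 and 13 against 0. Egr1, a zinc finger factor of the same early response, had 6 and 18 against 4, all in Oligo5-2. Dusp1, a phosphatase of MAP kinases, had 3 and 21 against 3, all in Oligo5-1. Ier3 had 15 and 10 against 0. Btg2, an antiproliferative gene, had 6 and 16 against 1, a ratio of pooled shares of 93.2 with a 95% counting interval of 15.1 to 3846. Hspa1a, an inducible heat shock protein, had 2 and 8 against 0, but its near-identical copy Hspa1b makes the assignment uncertain. Jun was not called, with 2 and 9 transcripts against 2, 1, 6 and 0. Both VLMCs were above all oligodendrocytes for the sum of the list. Without the genes of the list, and with shares recomputed, 63 genes were called higher in VLMCs, an alternative chosen after seeing the data.

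**Figure D1:**
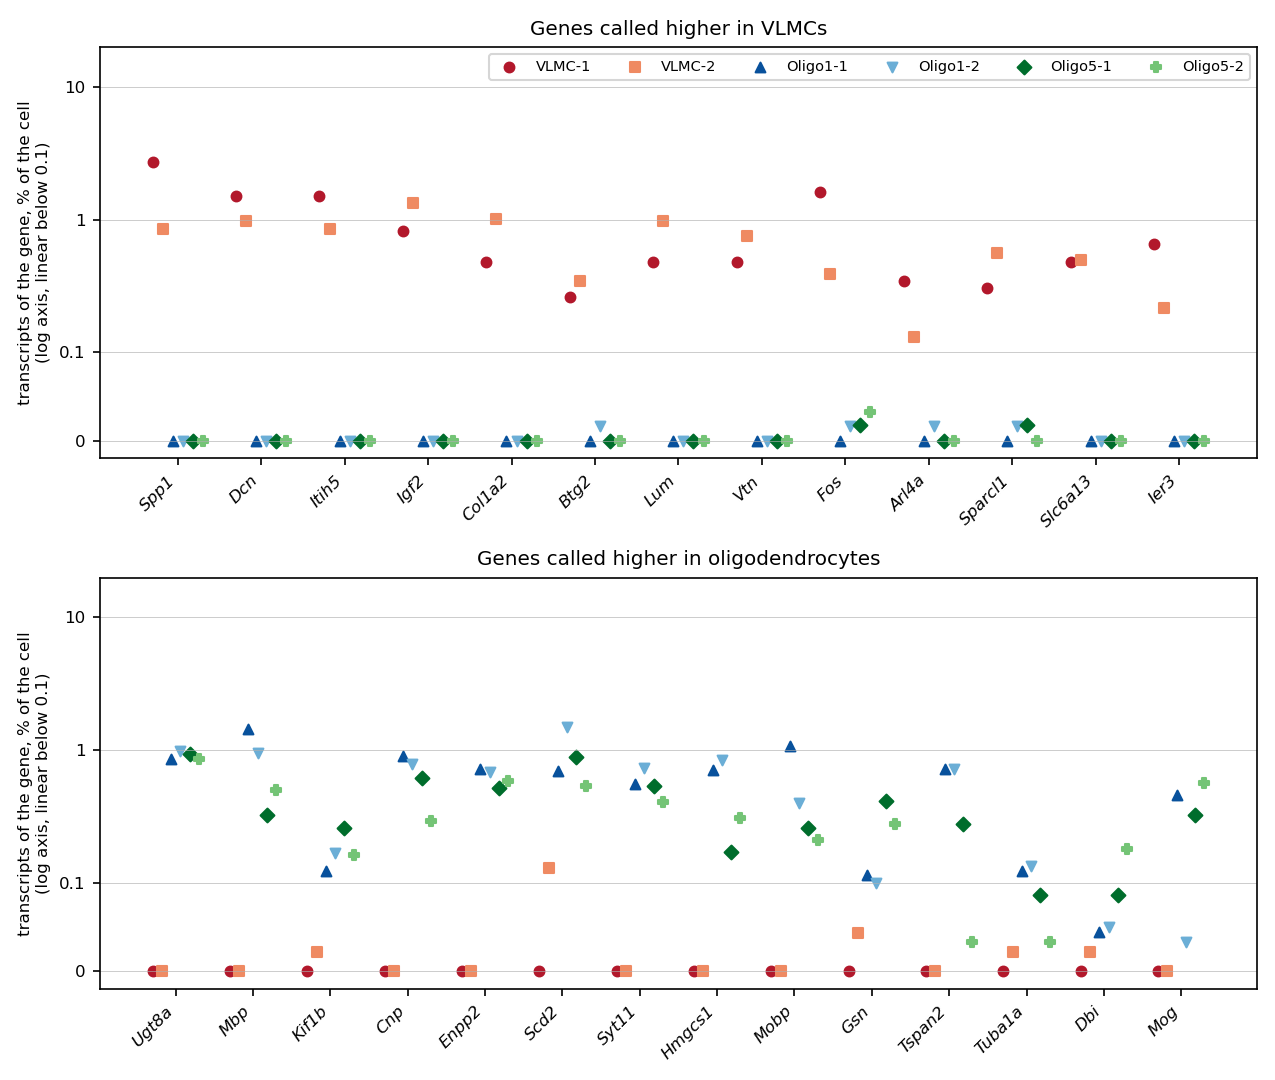
Transcripts of 13 genes called higher in VLMCs and 14 called higher in oligodendrocytes, all among the 15 with the largest folds in their direction, as a percentage of the transcripts of each of the 6 cells, on an axis that is logarithmic above 0.1 and linear below it. VLMCs sit between 0.13% and 2.73% in the upper panel, where no oligodendrocyte is above 0.0324%, and Mbp stands at 0.326% to 1.45% of the oligodendrocytes in the lower panel, where both VLMCs have no transcript of it.

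Myelin genes led the oligodendrocyte side. The sum of the myelin protein list was 15.0%, 15.0%, 20.7% and 16.0% of the oligodendrocytes and 0.217% and 0.93% of the VLMCs. The difference, VLMCs minus oligodendrocytes, went from −16.1 to −6.90 percentage points with UMIs within 1 substitution counted once. Of 30 tested members 8 were called higher in oligodendrocytes and 0 in VLMCs, with a median log2 ratio of −2.07, where genes without a VLMC transcript stand at their bound. Mbp, myelin basic protein, which compacts the membrane, had 165, 57, 19 and 31 transcripts against 0, at least 18.7-fold higher. Mobp, a small protein of compact myelin, had 122, 24, 15 and 13 against 0. Cnp, an enzyme of the uncompacted channels of the sheath, had 103, 47, 36 and 18 against 0, and Cldn11, the tight junction protein of myelin, had 43, 35, 18 and 4 against 0. For Mbp, Mobp, Cnp and Cldn11 the share was lower in both Oligo5 cells than in both Oligo1 cells. Mal, a proteolipid of myelin, had 0 in VLMCs but only 1 and 0 transcripts in Oligo1-1 and Oligo1-2 against 52 and 23 in the Oligo5 cells, and was not called since it was not above the VLMCs in every cell. Mog, a protein of the outer myelin surface, was called, with 52, 2, 19 and 35 against 0.

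Genes that make the lipids of myelin were the other main group. The sterol and myelin lipid list took 5.01%, 5.69%, 3.30% and 2.87% of the oligodendrocytes and 0% and 0.130% of the VLMCs, a difference of −4.15 points, or −2.42 with the first exon. It had 33 detected members, all of them in oligodendrocytes, and the single member found in VLMCs was Scd2, a desaturase of fatty acids, with 6 transcripts in VLMC-2 against 79, 89, 52 and 33. Ugt8a, which makes galactocerebroside, had 98, 59, 54 and 53 transcripts against 0 and shares of 0.860% to 0.982% over the 4 cells. Hmgcs1, an early enzyme of cholesterol synthesis, had 80, 51, 10 and 19 against 0, and its share was lower in both Oligo5 cells than in both Oligo1 cells. Of 16 members tested 4 were called. Cyp51 and Msmo1, later enzymes of the same route, had 38, 9, 1 and 3 and 39, 11, 3 and 4 transcripts against 0 and did not reach the limit of 4-fold over the floor of the VLMCs.

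Further genes called higher in oligodendrocytes had various roles. Syt11, a synaptotagmin, had 63, 44, 31 and 25 transcripts against 0, and Enpp2, autotaxin, a secreted lysophospholipase, had 82, 41, 30 and 36 against 0. Tspan2, a tetraspanin of myelin, had 82, 43, 16 and 2 against 0. Kif1b, a kinesin that carries cargo along microtubules, had 14, 10, 15 and 10 against 1 transcript in VLMC-2, a ratio of pooled shares of 11.6 with an interval of 1.98 to 466. Gsn, gelsolin, which severs actin filaments, had 13, 6, 24 and 17 against 2, a ratio of 7.08 with an interval of 1.88 to 59.8. Tuba1a, an alpha tubulin with near-identical paralogs and therefore of uncertain assignment, had 14, 8, 5 and 2 against 1, but its log2 ratio turned from -3.11 to 0.84 with UMIs read 2 or more times. The interval of Dbi, an acyl-CoA binding protein, with 5, 3, 5 and 11 transcripts against 1, ran from 0.924 to 233 and included no difference. S100b, a calcium binding protein, was called with 1, 1, 20 and 33 transcripts against 0, most of them in the Oligo5 cells.

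The number of calls in this direction changed with the VLMCs included. Leaving out VLMC-1 left 18 genes called higher in oligodendrocytes and leaving out VLMC-2 left 9. The floor of a side with no transcript rises when it holds fewer transcripts. With both VLMCs the floor applied to 21 of the 39 genes. For genes seen in a single VLMC the mean share changes too, and the part of each was not tested. Calls higher in VLMCs numbered 67 without VLMC-1 and 47 without VLMC-2. Without Oligo5-2, the cell with neuron markers, 65 and 48 genes were called higher in VLMCs and in oligodendrocytes.

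**Figure D2:**
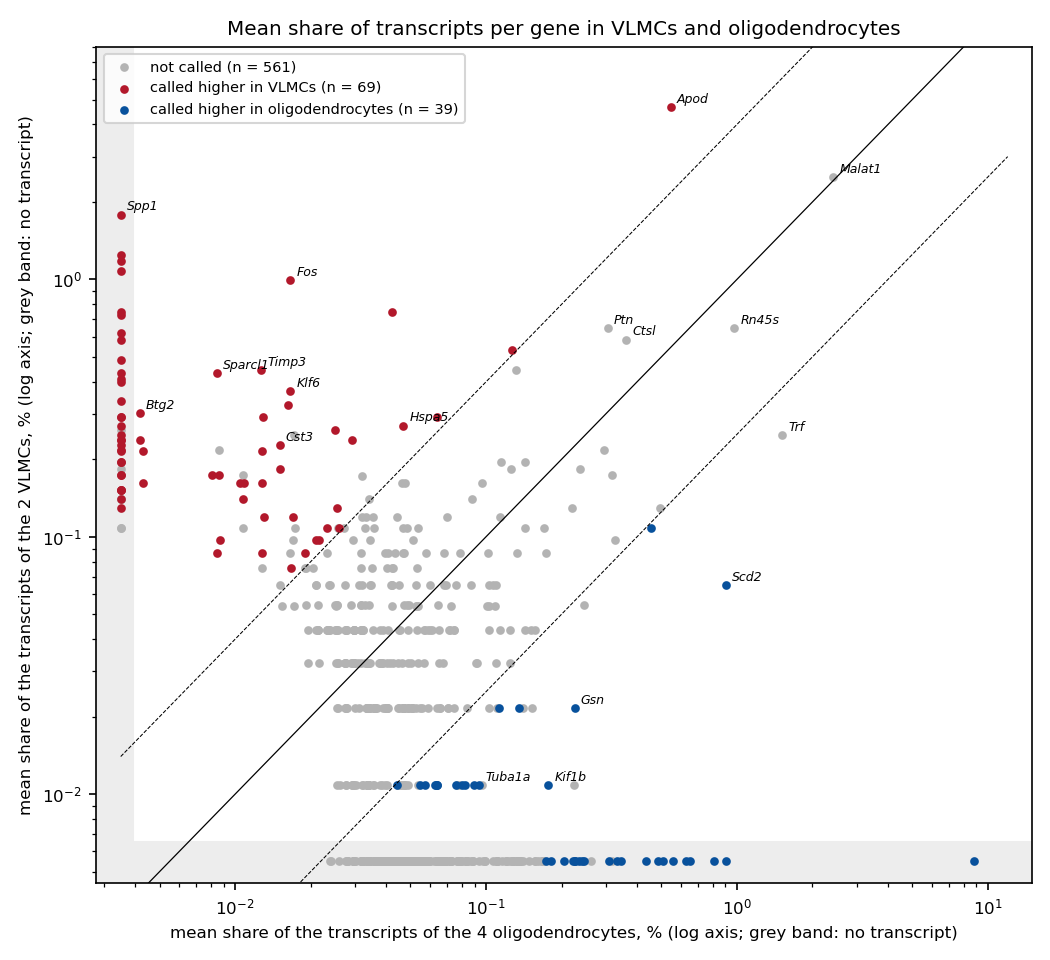
Mean share of the transcripts of the 2 VLMCs (vertical axis, %) against that of the 4 oligodendrocytes (horizontal axis, %) for the 669 genes with 10 or more transcripts, both on log axes, with genes without a transcript on a side drawn in a grey band. The solid line marks equal shares and the dashed lines 4-fold. The 69 red genes were called higher in VLMCs, the 39 blue genes in oligodendrocytes, and Malat1 lies on the line at 2.5% and 2.42%.

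Both sides held transcripts of 1346 genes, which is 61.1% of the 2203 genes of VLMCs and 24.5% of the 5500 genes of oligodendrocytes. Transcripts of these genes made up 61.8% of the VLMC transcripts and 35.2% of those of oligodendrocytes. These shares depend on depth, which differed between the sides, at 6934 and 29369 transcripts. Thinned to the shallowest cell, the share of VLMC transcripts was 46.4%. The gene with the highest level on its lower side was Malat1, a nuclear long noncoding RNA, with 2.82% and 2.18% of the VLMCs and 2.77%, 3.30%, 2.34% and 1.30% of the oligodendrocytes. The cells overlapped, and the ratio of pooled shares was 0.964, with an interval of 0.810 to 1.14. With UMIs within 1 substitution counted once, the log2 ratio of the mean shares of Malat1 went from 0.04 to 0.71. Rn45s, the precursor of ribosomal RNA, took 0.390% and 0.908% against 0.206% to 1.57%. Ptn, pleiotrophin, a secreted growth factor, was above all oligodendrocytes in both VLMCs, with 0.606% and 0.692% against 0.240% to 0.422%, but at 2.13-fold it was not called. Ctsl, a lysosomal protease, ran from 0.0343% in Oligo5-1 to 0.951% in VLMC-2, with VLMC-1 at 0.217%.

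Apod, apolipoprotein D, a carrier of lipids found in myelinating glia and in fibroblasts, was the most abundant gene of the VLMCs. It had 86 transcripts in VLMC-1, 3.72% (95% interval 2.99 to 4.58), and 261 in VLMC-2, 5.64% (5.00 to 6.35). Among oligodendrocytes it had 60 transcripts in Oligo5-1, 1.03%, and 71 in Oligo5-2, 1.15%, but 0 in Oligo1-1 and Oligo1-2. It was called higher in VLMCs at 8.59-fold. With UMIs within 1 substitution counted once, it had 56 and 70 transcripts in the VLMCs and 42 and 52 in the Oligo5 cells, and the log2 ratio of the mean shares went from 3.10 to 2.25. Trf, transferrin, the iron carrier, had 0 transcripts in VLMC-1 and 23 in VLMC-2, and 8, 3, 119 and 239 transcripts in the oligodendrocytes. For Apod and Trf the Oligo5 cells stood above the Oligo1 cells. Sepp1, a selenium carrier now named Selenop, had the same order, with 0, 1, 21 and 35 transcripts in oligodendrocytes and 5 and 7 in VLMCs.

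Lists of genes that every cell uses overlapped between the sides. The nuclear genes of oxidative phosphorylation took 1.30% and 2.12% of the VLMCs and 1.10% to 2.15% of the oligodendrocytes, and of 32 tested genes 1 was called higher in VLMCs, Ndufa5, a subunit of complex I, and 0 in oligodendrocytes. The cytosolic ribosomal proteins took 0.130% and 0.800% against 0.183% to 0.413%, and of 4 tested genes 0 were called. Fragments under 500 bp were discarded before sequencing, which bears on the short messages of this list. The secretory pathway list took 0.823% and 1.54% against 0.568% to 0.879%, and of 10 tested genes 3 were called higher in VLMCs, among them the chaperone Hspa5 with 5 and 15 transcripts against 12, 2, 0 and 3. The list of mesenchymal cytoskeleton and calcium binding genes overlapped as well, at 0.606% and 0.951% against 0.0333% to 1.12%, and its single called member was S100b, in oligodendrocytes. The 11 mitochondrially encoded genes of the list had 0 transcripts in all cells, so that they allow no comparison. Whether the deposited gene assignment covers them was not tested.

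A pair of further lists lay lower in both VLMCs than in every oligodendrocyte. Transcription factors of oligodendrocytes took 0.173% and 0.151% of the VLMCs and 0.195% to 0.949% of the oligodendrocytes, with 0 of 3 tested members called. The VLMC shares rest on 4 and 7 transcripts. Their intervals, 0.0472 to 0.443 and 0.0609 to 0.312, overlap that of Oligo5-2, 0.101 to 0.340. The list of microtubules and process transport took 0.476% and 0.324% against 1.09% to 1.61%, and 3 of its 10 tested members were called higher in oligodendrocytes and 1, the kinesin heavy chain Kif5b, in VLMCs. Among transcripts with the first exon the differences, VLMCs minus oligodendrocytes, went from −0.418 to −0.974 points for the factors and from −1.06 to −0.597 for microtubules.

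**Figure D3:**
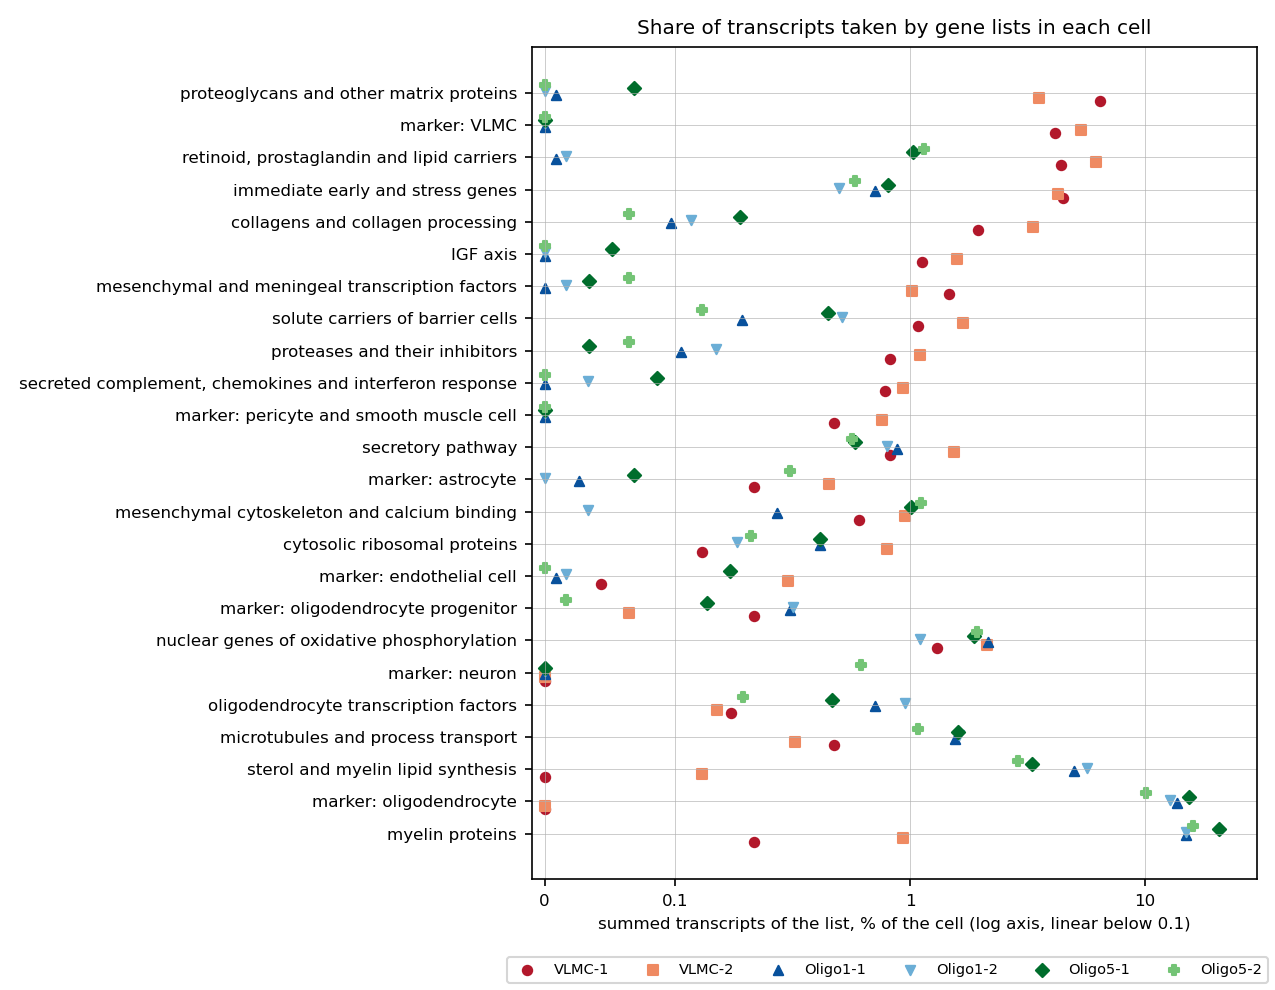
Summed transcripts of each gene list as a percentage of the transcripts of each of the 6 cells, on an axis that is logarithmic above 0.1 and linear below it, with lists ordered by the difference of the mean shares. Points of the VLMCs lie to the right of all oligodendrocytes for the matrix, collagen and immediate early lists, and to the left for the myelin and lipid lists, while oxidative phosphorylation overlaps at 1.10% to 2.15%.

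The VLMCs differed from each other as well. Of 84 genes with enough transcripts in the pair, 12 differed at least 4-fold between VLMC-1 and VLMC-2, 14.3%. Pairs of a VLMC and an oligodendrocyte had 20.8% to 60.8% of genes at that limit and pairs of oligodendrocytes from 26 of 259 genes to 60 of 142. Higher in VLMC-2 were Slc1a3, a glutamate transporter, with 1 and 21 transcripts, Fstl1, a secreted glycoprotein, with 1 and 18, B2m, the light chain of class I histocompatibility molecules, with 1 and 12, and Itm2a, with 1 and 14. Higher in VLMC-1 were Cxcl1, Fos and Fam180a, the last with 14 and 3. The lower number of transcripts in VLMC-1 sets the precision of these values.

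Exon use was compared in genes of both sides. Inclusion was counted among transcripts that hold an exon before and after the one in question, which gave 187 exons of 47 genes with 5 or more such transcripts on each side. Of these, 148 were included in every transcript on both sides, where 5 of 5 transcripts still allow an inclusion down to 47.8%. Among 38 genes with 5 or more first-exon transcripts on each side, 36 had the same leading exon structure on both sides, a measure added after seeing the data. Malat1, Jun, Atxn7l3b and Gm20594 held a single exon in every transcript, so their agreement says nothing about exon choice. Those that differed were Gas5 and Hsp90b1. In deposited numbering, Hsp90b1 led with exons 12 to 18 in VLMCs, 50% of 6 transcripts. In oligodendrocytes it led with exons 1 to 18, 38.5% of 13. The gene lies on the minus strand and these numbers count from the low genomic end. The leading structure of VLMCs thus holds the exons of the 5′ part and lacks those of the 3′ part. Of the 187 exons, 1, or 0.535%, differed by 50 percentage points or more. It is the exon at chr1:161037995-161038037 (GRCm38, plus strand) of Gas5, a noncoding host gene of small nucleolar RNAs. It was present in 2 of 5 VLMC transcripts, all from VLMC-2, and in 17 of 18 of oligodendrocytes, with 95% intervals of 5.27% to 85.3% and 72.7% to 99.9%. The 4 transcripts without it joined position 161036851 to position 161038225. The intervals overlapped, and with UMIs read 2 or more times, or without VLMC-2, no exon passed the limit.

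Apod gave the deepest view of 1 exon. The exon at chr16:31314399-31314468 (GRCm38, minus strand), second in the order of transcription and untranslated, was included in 53 of 62 transcripts of VLMC-1, 167 of 215 of VLMC-2, 30 of 45 of Oligo5-1 and 53 of 67 of Oligo5-2. In sum this was 79.4% (74.2 to 84.0) in VLMCs and 74.1% (65.0 to 81.9) in oligodendrocytes, with overlapping cells. These intervals take each transcript as a separate molecule, while Apod had fewer transcripts with UMIs within 1 substitution counted once. The full structure of 6 exons and the structure without this exon made up 218 and 57 of 278 first-exon transcripts in VLMCs and 83 and 29 in oligodendrocytes, which held no other structure.

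Transcript ends were compared in the same way. Neighbouring ends up to 5 bp apart were joined into 1 site, and 97 genes had 5 or more transcripts on each side. The most used site was the same in 64 and another in 33, and in 13 genes, 13.4%, the share of a site differed by 50 percentage points or more. With UMIs read 2 or more times this was 2 of 27 genes, and with 10 transcripts on each side 1 of 23. Transcripts of both VLMCs entered in 6 of the 13. The most abundant gene of the VLMCs, Apod, showed no such difference. The main end of Apod, at chr16:31297113-31297128, held 328 of 347 transcripts in VLMCs and 125 of 131 in oligodendrocytes, or 94.5% and 95.4%, with each of the 4 cells between 93.0% and 95.8%. The 30 bases of the GENCODE M21 transcripts up to this end are shown first, followed by the main end of Lamp2 in oligodendrocytes, with the polyadenylation signal AATAAA in capitals, read on the transcribed strand.
Apod, chr16:31297120-31297149: gctagcccaatAATAAAcattttgctgatc
Lamp2, oligodendrocyte end, chrX:38405064-38405093: actggaattAATAAAcactgcttgaccacc

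Lamp2, an abundant membrane protein of lysosomes, had, with Sec62, the most transcripts of the 13 genes. One end held 9 of 10 transcripts of VLMCs, all from VLMC-2, and 5 of 19 of oligodendrocytes, or 90.0% (55.5 to 99.7) and 26.3% (9.15 to 51.2). Another, at chrX:38405062-38405068, held 0 of 10 and 12 of 19, the latter from Oligo1-1 with 8, Oligo5-1 with 1 and Oligo5-2 with 3. Both are ends of annotated last exons, which are alternatives and encode different membrane-spanning and cytosolic tails of the protein, so that the site tells which tail a transcript carries. The first bases of these exons, at the point where the alternatives part, are given next, both on the minus strand of GRCm38.
Lamp2, last exon of the VLMC end, chrX:38421822-38421851: cccaggagtgttcgctggatgatgacacca
Lamp2, last exon of the oligodendrocyte end, chrX:38405542-38405571: ctcaagactgcagtgcagatgaagacaact
None of the 10 transcripts of VLMC-2 reached the first exon of Lamp2, against 14 of 19 in oligodendrocytes. VLMC-1 had 0 transcripts of Lamp2, and with UMIs within 1 substitution counted once the first end held 8 of 8 and 5 of 18.

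Several of the other sites lie before stretches of A in the genome. Of 12 sites past the limit with 20 annotated bases after the end, 6 had 12 or more A in those bases. Sec62, a subunit of the channel into the endoplasmic reticulum, had its site at chr3:30809966-30809969, within the coding part, in 6 of 8 VLMC transcripts, 2 of 3 and 4 of 5 by cell, and in 3 of 21 of oligodendrocytes. A second end of Sec62, at chr3:30809886-30809887, held 0 of 8 and 9 of 21. Tmem50a, a small membrane protein, had the site at chr4:134898016-134898022 in 1 of 9 VLMC transcripts and in 10 of 14 of oligodendrocytes, where Oligo1-2 held 0 of 2. Timm17a, of the import channel of mitochondria, had a site with 4 of 6 transcripts, all from VLMC-2, against 0 of 12. The last 10 bases before these ends are shown in lower case and the next 20 in capitals, with 16, 16, 18 and 20 A in the latter.
Sec62, VLMC end, chr3:30809957-30809986: tgttaaagaaGAAAAAACAAAAAAGGAAAA
Sec62, oligodendrocyte end, chr3:30809878-30809907: ataaagacgtAAAAAAAGAAAAAGATAAAG
Tmem50a, oligodendrocyte end, chr4:134898001-134898030: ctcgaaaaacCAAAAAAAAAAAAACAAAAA
Timm17a, VLMC end, chr1:135301218-135301247: ccctgtctccAAAAAAAAAAAAAAAAAAAA
The primer that starts the cDNA binds to stretches of A, and the part of such internal stretches in these differences was not tested.

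Ends without such a stretch differed too. Cetn3, a centrin of the centrosome, used the annotated end at chr13:81796915-81796916 in 7 of 8 VLMC transcripts, 2 of 2 and 5 of 6, and in 2 of 7 of oligodendrocytes, both from Oligo5-2. Pafah1b1, also called Lis1, a regulator of dynein, had an end at chr11:74676224-74676225 in 4 of 4 transcripts of VLMC-1 and 0 of 3 of VLMC-2, with 0 of 9 in oligodendrocytes, so that the VLMCs differed as much from each other as from the other side. The next 20 bases held 5 A at both sites, and the 30 bases up to the Pafah1b1 end hold AATAAA.
Cetn3, chr13:81796886-81796915: aatacatgtttatataaagttttaaaacat
Pafah1b1, chr11:74676225-74676254: ttgtcaatttttAATAAAgaatttatcacc
With 5 to 10 transcripts on the smaller side the intervals of these shares are wide, for example 47.3 to 99.7 and 3.67 to 71.0 for Cetn3. Without VLMC-2, 3 of 24 genes were called.

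Malat1 had the most transcripts of any gene with ends on both sides, 166 and 729, and its ends differed below the limit. The site at chr19:5802436-5802445 held 23.1% and 30.7% of the transcripts of the VLMCs and from 6.67% (Oligo1-1) to 13.8% (Oligo5-2) of those of the oligodendrocytes, so that the sides did not overlap. In sum it was 27.7% (21.1 to 35.2) against 8.64% (6.70 to 10.9). These intervals take each transcript as a separate molecule. With UMIs within 1 substitution counted once, Malat1 had 50 and 70 transcripts in the VLMCs and 51, 79, 89 and 58 in the oligodendrocytes. Its end shares are not given for that setting. The leading site, at chr19:5801945-5801959, was lower in both VLMCs, at 43.1% and 49.5% against 61.3% to 64.6%. Each of these sites was followed by 12 A in 20 bases.

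**Figure D4:**
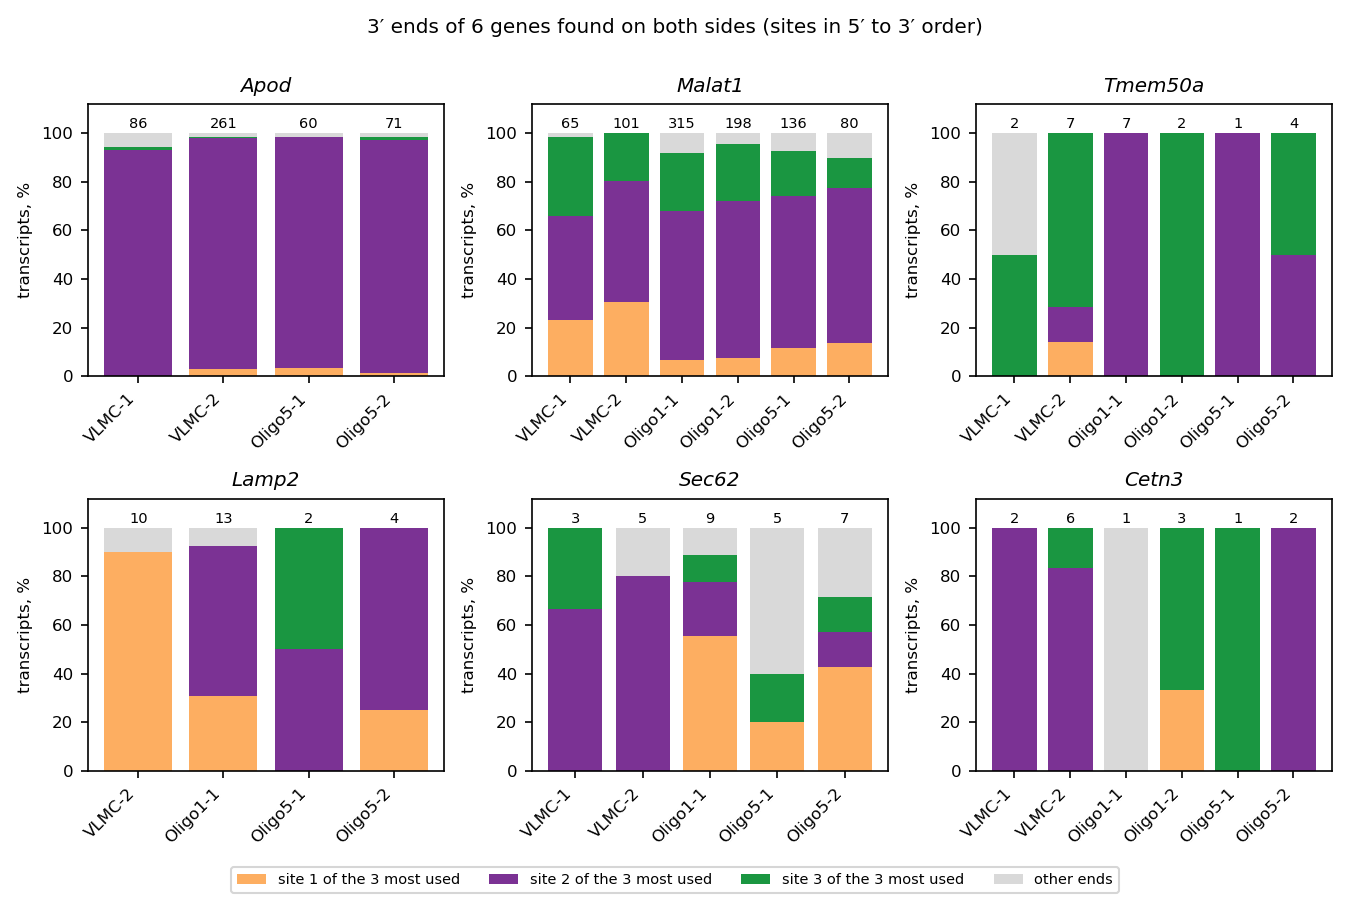
Share of transcripts (vertical axis, %) that end at each of the 3 most used 3′ sites of 6 genes, by cell, with the number of transcripts above each bar and sites numbered in the direction of transcription. Cells without a transcript of the gene are left out. Apod has 1 main site in all its cells, site 1 of Malat1 is larger in both VLMCs (23.1% and 30.7%) than in the oligodendrocytes, and bars of Tmem50a, Lamp2, Sec62 and Cetn3 rest on 1 to 13 transcripts.

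Starts within the first exon were compared in 38 genes, a measure added after seeing the data. The leading start was the same in 31, and a site of 4 genes, 10.5%, passed the limit. Hsp90b1, the chaperone GRP94 of the endoplasmic reticulum, began at its main site in 3 of 6 VLMC transcripts, 0 of 1 and 3 of 5 by cell, and in 13 of 13 of oligodendrocytes. P4hb, protein disulfide isomerase, had a start used in 5 of 7 transcripts of VLMC-2 and in 0 of 9 of oligodendrocytes. Cst3, the protease inhibitor cystatin C, had a start with 0 of 13 and 3 of 6, all 3 of Oligo1-1. Eef1b2, a translation factor with processed copies in the genome and thus of uncertain assignment, began at its main site in 1 of 5 VLMC transcripts and in 9 of 9 of oligodendrocytes.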

How the data were processed

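The data are PacBio reads of amplified single-cell cDNA. Each deposited row carries counts of the reads that the authors merged into 1 transcript by UMI, with the positions of aligned blocks and exon numbers, and no normalization. The authors aligned reads to mm10 (GSNAP per the submitters' processing notes, GMAP in the study's methods) and assigned RefSeq genes. The stored cDNA had additional PCR, fragments under 500 bp were discarded, and a short and a long sequencing run were made, which can shift shares between cells. Here 1 row was taken as 1 transcript, 356 transcripts of several overlapping genes were left out, and shares were computed per cell (Python 3.11.15, pandas 2.3.3, scipy 1.17.1). Total transcripts per cell, 2309 to 11371, set the precision. Names were matched to GENCODE M21, 6124 by symbol and 217 by synonym. First exon means the annotated first exon, since deposited exon numbers count from the low genomic end. Named are the 15 called genes with the largest fold in each direction, the 10 most abundant on both sides, called exons and ends, and list members, while Col4a5 and the genes named for differences between the VLMCs were chosen after their values were seen. Start sites, leading structures, the Malat1 site, counts of A, merged UMIs for exons and ends, and shares without the immediate early list were added after seeing the data. The members and lists were chosen with earlier results of these data known. Scripts were tested on simulated data. Values of some genes are not reported here. Each side is 1 sample, so no p-value is given. Alternatives are described in the closing section. Sequences were read from GENCODE M21 transcripts.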

Additional observations from a re-analysis of the deposited data

Results flagged for a closer look

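In 3 gene lists 1 of the 4 oligodendrocytes stood apart from the others by Dixon's criterion. It was applied to every list and leading named gene with 10 or more oligodendrocyte transcripts, and no named gene met it. Chance meets it in about 1 of 20 groups of normally distributed values, so that a few flags can arise by chance over this many groups. That rate does not hold for lists with counts at or near 0 in most cells, such as the neuron and endothelial lists. The endothelial marker list was highest in Oligo5-1, at 0.172% of its transcripts, where 6 of 10 transcripts were of Itm2a. The neuron marker list was highest in Oligo5-2, at 0.616%, with Snap25, Syt1, Meg3 and Stmn2, and at 0 in the other oligodendrocytes. The list of microtubules and process transport was lowest in Oligo5-2, at 1.09%. Transcripts assigned to several overlapping genes, which entered no comparison, made up 1.32% of the VLMC transcripts and 0.888% of those of oligodendrocytes, and the most frequent was Cd81 with R74862, at 5 transcripts.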

How the results depend on the processing

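Depth and the UMIs limit these values: VLMC-1 has 2309 transcripts, and reads of 1 molecule with errors in the UMI can count more than once. With UMIs within 1 substitution counted once, Malat1 went from 315, 198, 136 and 80 transcripts in the oligodendrocytes to 51, 79, 89 and 58, and from 65 and 101 in the VLMCs to 50 and 70, where the 6-base UMI itself limits what can be told apart. No paired analysis was possible because the comparison comes from no test and a replicate number joins no cells of different kinds.

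Genes called higher in VLMCs, 69, numbered 34 with UMIs read 2 or more times, 23 with the first exon, 40 and 36 with a read of the short or long run, 42 thinned to the shallowest cell, and 148, 28 and 216 at minimums of 5, 20 and 1 transcripts. Those higher in oligodendrocytes, 39, numbered 18, 10, 24, 18 and 19 in the first of these settings, 74 and 15 at 2-fold and 8-fold, and 60 with overlap allowed. Leaving out each cell gave 47 to 68 and 9 to 48. The share of VLMC transcripts of genes found on both sides, 61.8%, was 50.1% with UMIs read 2 or more times, 46.4% thinned and 57.1% to 63.2% on leaving out a cell. Exons past the limit, 1, numbered 0 with UMIs read 2 or more times, with the long run or at 10 transcripts, 5 at 3 transcripts, 2 at 30 points, and 0 to 1 on leaving out a cell. Genes with different 3′ ends, 13, numbered 2 with UMIs read 2 or more times, 7 and 6 by run, 1 and 85 at 10 and 3 transcripts, 36 at 30 points, and 3 to 13 on leaving out a cell.

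Differences of list shares, VLMCs minus oligodendrocytes in percentage points, moved by more than the spread between cells in these cases, with no change of direction, and the cause was not tested. Among transcripts with the first exon they were -8.38 for oligodendrocyte markers (main -13.0), -0.873 for progenitor markers (-0.0537), 0.940 for collagens (2.53), 7.45 for matrix proteins (4.95), 0.0228 for the IGF axis (1.34), 0.609 for proteases and inhibitors (0.874), 1.58 for complement and chemokines (0.825), 7.29 for lipid carriers (4.72), 0.518 for mesenchymal factors (1.22), -0.974 for oligodendrocyte factors (-0.418), -12.4 for myelin (-16.1), -2.42 for sterols (-4.15), -0.597 for microtubules (-1.06) and 3.27 for immediate early genes (3.72). With merged UMIs they were -4.44 for oligodendrocyte markers, -6.90 for myelin and 2.33 for lipid carriers. With the long run they were 0.849 for pericyte markers (0.617), 0.476 for astrocyte markers (0.234), 0.85 for the IGF axis and 3.35 for immediate early genes. With UMIs read 2 or more times they were 1.10 for proteases and -0.733 for microtubules, and thinned 0.682 for complement and chemokines. The log2 ratio of Tuba1a turned from -3.11 to 0.84 with UMIs read 2 or more times. Lists whose sides overlapped (progenitor and endothelial markers, mesenchymal cytoskeleton, ribosomal proteins, oxidative phosphorylation) changed sign within the spread between cells in 1 or more settings.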
